A study of Mus musculus with 16 samples.

Results

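The lysosome genes described here are 40 genes of the counts table, of 46078 in all, that encode proteins of the lysosome or transcription factors that switch such genes on. They were chosen by name, with earlier results of these data known, as were their roles below. Each name stood on a single line of the table, and all 40 passed the filter on low counts that left 13661 genes to test. They were divided by role into 9 membrane proteins, 9 proteases (8 cathepsins and the tripeptidyl peptidase gene Tpp1), 9 glycosidases, 5 lipid hydrolases or their cofactors, 5 subunits of the proton pump (V-ATPase) and 3 regulators of the MiT/TFE family.

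Lysosomes are acid compartments in which proteins, sugars and lipids brought in by endocytosis or autophagy are broken down. The V-ATPase pumps protons into them, the hydrolases work at the low pH, and membrane proteins such as LAMP1 and LAMP2 line the inner wall. TFEB, TFE3 and MITF bind E-box sequences with CACGTG at their core near the starts of many lysosome genes, and they leave the cytoplasm for the nucleus when the nutrient sensor mTORC1, which sits on the lysosome, is off. In hematopoietic stem cells (HSCs) lysosomes have been linked to the quiescent state, and cathepsins and other hydrolases are abundant in monocytes, macrophages and granulocytes.

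HSCs, given as wild type and of strain B6.SJL for all samples, were sorted as Lin- SCA1+ cKIT+ (LSK) CD48- CD150+ cells of cKIT-enriched bone marrow, and by their surface level of MAC-1, the integrin of CD11b and CD18. Steady-state (SS) HSCs came from untreated mice and gave 3 SS MAC-1- and 3 SS MAC-1low samples. The 4 week HSCs came from recipients given 900 cGy and 8000 LSK cells 4 weeks earlier, and gave 3 4 week MAC-1-, 4 4 week MAC-1low and 3 4 week MAC-1+ samples. In the serial transplantations of the study, LY5.1 (B6SJL) cells went into LY5.2 hosts with whole bone marrow of LY5.2 mice and LY5.1 HSCs were sorted from them; a donor gate for the sequenced samples is not given in the sources used here. Transplantation, irradiation of the host and time cannot be told apart in the comparisons of 4 week with SS HSCs, and a MAC-1+ population was sequenced at 4 weeks alone. SMART-Seq, a full-length method for small cell numbers, was used to make cDNA, and read counts per gene were deposited. The labels do not say that samples with different replicate numbers came from different mice, so the p-values measure the spread between these samples.

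Levels are counts scaled to library size (CPM) with TMM factors, and CPM per kb of exon where genes are compared with each other. Totals ran from 13781278 to 28580658 counts per sample, so that a gene at 0 could still stand at up to 0.112 to 0.220 CPM, taking 3 counts as the limit that a count of 0 allows, for counting error only. The 8 HSC marker genes were above that limit in every sample, except Slamf1 in replicate 2 of the 4 week MAC-1+ HSCs. Slamf1 read 7.98, 0.126 and 129 CPM in the 4 week MAC-1+ samples. The summed level of the 8 ran from 746 to 832 CPM in 4 week MAC-1- and from 1490 to 3800 CPM in the other samples. Replicate 3 of the 4 week MAC-1+ HSCs stood apart by 8 neutrophil genes, with a sum of 6930 CPM beside 164 and 958 in its other replicates and 23.8 to 169 elsewhere. The 6 megakaryocyte genes summed to between 4250 and 6740 CPM in 4 week MAC-1- HSCs, and to between 156 and 1100 CPM in the other populations. A list of 10 monocyte and macrophage genes held 410 to 604 CPM in 4 week MAC-1- and 715 to 739 CPM in 4 week MAC-1+ samples. It held 734 to 805 CPM in SS MAC-1- and 644 to 790 CPM in SS MAC-1low samples. Lyz2 and Ms4a6c were its only genes above the limit in all samples. Lyz2 ran from 436 to 594 CPM in 4 week MAC-1+ and from 346 to 575 CPM in 4 week MAC-1- samples. Ms4a6c ran from 143 to 282 CPM and from 29.1 to 64.5 CPM in them. Csf1r and C1qa were at 0 in every 4 week MAC-1+ sample and at no more than 3 counts in any other sample. They were the only 2 of the 10 at 0 in all samples of that population, beside 4 or 6 in each other one. Ccr2, Cd14 and Ly86 had 29, 4 and 1 counts in 4 week MAC-1+ replicate 3, each the most of any sample. Mrc1, Adgre1 and Fcgr1 were highest in samples of other populations, Mrc1 with 170 counts in 4 week MAC-1low replicate 4. Summed levels over all samples were 0.0522 to 120 CPM for 8 mast cell and basophil genes, 8.51 to 170 CPM for 5 erythroblast genes, highest in 4 week MAC-1+ HSCs, 6.40 to 156 CPM for 5 B cell genes and 16 to 644 CPM for 5 T and NK cell genes. The part of these genes in the results below was not tested.

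The E-box of the MiT/TFE factors was looked for in RefSeq promoters of GRCm38.p6, from 250 bases before to 50 bases after each start, which were at hand for 34 of the 40 genes. The letters CACGTG, the same on both strands, stood in the promoters of 11 of the 34 (32.4%), Atp6v0d1, Atp6v1a, Ctsa, Ctsd, Ctsl, Gaa, Gla, Glb1, Lamp1, Mcoln1 and Naglu, beside 8.09% of the 27025 genes with a promoter. The longer form TCACGTGA, which holds CACGTG, stood in 6 of them (17.6%) beside 1.12% of all genes. A 10-letter form, which adds a base at each end of TCACGTGA, was searched too. It stood in 0 of the 34, beside 0.37% of all genes, so the excess did not grow with every added base. The 8 places of TCACGTGA are shown as 30 bases of the strand of the gene, with the motif in capitals. They are the sequence that these otherwise unrelated enzymes, pump subunits and channel share.
Atp6v0d1, chr8:105566050-105566079, minus strand: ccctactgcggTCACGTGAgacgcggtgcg
Atp6v1a, chr16:44139373-44139402, minus strand: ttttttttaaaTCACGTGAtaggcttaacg
Ctsa, chr2:164833749-164833778, plus strand: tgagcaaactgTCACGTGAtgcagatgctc
Ctsa, chr2:164833766-164833795, plus strand: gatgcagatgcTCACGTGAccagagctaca
Ctsd, chr7:142387908-142387937, minus strand: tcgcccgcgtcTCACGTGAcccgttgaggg
Gla, chrX:134601215-134601244, minus strand: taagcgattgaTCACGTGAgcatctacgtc
Gla, chrX:134601182-134601211, minus strand: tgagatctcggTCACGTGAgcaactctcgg
Mcoln1, chr8:3500462-3500491, plus strand: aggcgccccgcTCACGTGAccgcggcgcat

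The Mcoln1 motif began at position -46 from the RefSeq start, that of Atp6v0d1 at position -4, and those of Ctsa at positions -13 and 5. Lamp1 held 4 copies of CACGTG, at positions -61, -45, -28 and -15, without the longer form. The promoters of Cd63 and Lamp2, the members with the most reads, held no CACGTG in this window. Their 250 bases before the RefSeq start are given for comparison with the windows above, and a match or its absence says nothing of whether a factor bound there. The Cd63 start searched lies inside the span of the gene given below, which begins upstream at chr10:128900989. The sequence before that position was not searched.
Cd63, chr10:128909095-128909344, plus strand: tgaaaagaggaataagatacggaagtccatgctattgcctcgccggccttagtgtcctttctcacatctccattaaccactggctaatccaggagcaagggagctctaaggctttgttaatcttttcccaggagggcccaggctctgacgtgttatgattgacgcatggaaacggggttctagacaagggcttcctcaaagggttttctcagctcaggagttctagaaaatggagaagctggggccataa
Lamp2, chrX:38456461-38456710, minus strand: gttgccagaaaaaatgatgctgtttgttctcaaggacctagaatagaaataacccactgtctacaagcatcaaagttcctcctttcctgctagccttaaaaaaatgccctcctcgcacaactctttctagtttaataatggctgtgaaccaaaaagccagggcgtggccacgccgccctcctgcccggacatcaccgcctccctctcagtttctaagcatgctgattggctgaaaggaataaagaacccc

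Among the membrane proteins, Cd63, a tetraspanin of late endosomes, lysosomes and secretory granules (ENSMUSG00000025351, GENCODE M21 on GRCm38, chr10:128900989-128912822, plus strand), had the highest level of all 40 genes per length, at a mean of 163.8 CPM per kb, and held 22.5% of the reads of the 40. It read 1087, 1149 and 693 CPM in the SS MAC-1- and 835, 657 and 856 CPM in the SS MAC-1low samples. At 4 weeks it read 459, 386 and 484 CPM in MAC-1-, 391, 604, 421 and 450 CPM in MAC-1low and 327, 414 and 436 CPM in MAC-1+ HSCs. All 10 4 week samples were below all 6 SS samples, which was the case for this 1 member and for 0.3% of the genes tested. Cd63 fell by 1.14 on the log2 scale (SE 0.218) between MAC-1- HSCs of the SS and those of 4 weeks (edgeR's quasi-likelihood test, Benjamini-Hochberg adjusted p = 0.0533, called below 0.1). It fell by 1.32 (SE 0.218) from SS MAC-1- to 4 week MAC-1+ HSCs (edgeR, adjusted p = 0.00934) and by 1.00 (SE 0.217) from SS MAC-1low to 4 week MAC-1+ HSCs (edgeR, adjusted p = 0.0653). Between both MAC-1low populations the difference was -0.75 (SE 0.200) without passing the threshold (edgeR, adjusted p = 0.321).

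These 4 differences share samples and are no independent repeats of each other. In bulk samples, fewer cells that hold a transcript and less of it per cell cannot be told apart. The call of 4 week MAC-1+ against SS MAC-1- HSCs held with every sample left out in turn (adjusted p from 0.00593 to 0.0392). All 3 calls were lost when only the 2 populations compared were fitted (adjusted p = 0.18, 0.254 and 0.237, in the order 4 week MAC-1+ and MAC-1- against SS MAC-1-, and 4 week MAC-1+ against SS MAC-1low). The call of 4 week against SS MAC-1- HSCs was also lost without SS MAC-1- replicate 1 or 2 or any of the 3 4 week MAC-1- samples (adjusted p up to 0.210). That of 4 week MAC-1+ against SS MAC-1low HSCs was lost without any 1 of the 6 samples compared (adjusted p up to 0.185). Without replicate 3 of the 4 week MAC-1+ HSCs, the one with the highest neutrophil genes, the 2 differences of MAC-1+ HSCs were -1.42 and -1.09. Replicate 2, with a neutrophil sum of 958 CPM, stayed in that fit.

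**Figure D1:**
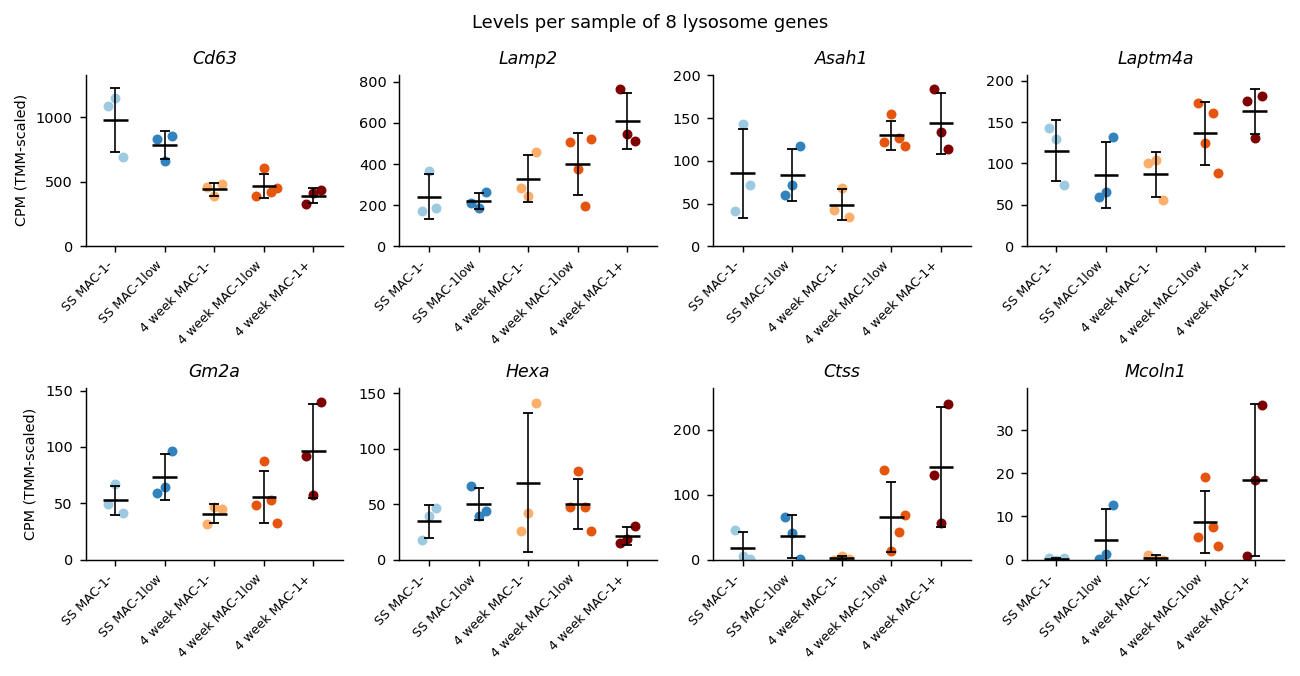
Level in CPM (y axis, from 0) of 8 lysosome genes in each of the 16 samples (points) of the 5 HSC populations (x axis), with the mean (line) and SD (bars, cut at 0). Cd63 is lower in all 10 4 week samples than in all 6 SS samples, and Asah1 is at 68.7 CPM or less in the 4 week MAC-1- samples and at 114 CPM or more in the other 4 week samples.

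Lamp2, the gene of the LAMP2 glycoproteins that line the lysosome (ENSMUSG00000016534, chrX:38401357-38456454, minus strand), took a different course from Cd63. It read 169, 367 and 184 CPM in SS MAC-1-, 211, 188 and 265 CPM in SS MAC-1low, 284, 245 and 459 CPM in 4 week MAC-1- and 507, 378, 197 and 521 CPM in 4 week MAC-1low samples. In 4 week MAC-1+ HSCs it read 764, 546 and 513 CPM, above every sample of both SS populations and of 4 week MAC-1- HSCs. The log2 differences of 4 week MAC-1+ HSCs were 1.34 (SE 0.375) from SS MAC-1- and 1.46 (SE 0.376) from SS MAC-1low HSCs, just short of the threshold (edgeR, adjusted p = 0.108 and 0.103). DESeq2 called both (adjusted p = 0.00619 and 0.0035), as did edgeR without the filter on low counts, while limma-voom did not (adjusted p = 0.213 and 0.184). From 4 week MAC-1- HSCs the difference was 0.88 (SE 0.371; edgeR, adjusted p = 0.311), and between both MAC-1low populations 0.86 (SE 0.352; edgeR, adjusted p = 0.533). Lamp2 has 9552 exon bases, and the genes with 6952.5 exon bases or more had a median log2 difference of 0.34 from MAC-1- to MAC-1+ HSCs at 4 weeks, beside -0.20 for those with 2690 or fewer. With an offset for this trend the Lamp2 difference in that pair was 0.59, and those from SS HSCs were 1.17 and 1.26.

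The other structural protein, Lamp1, did not move with Lamp2. It read 57.9, 80.7 and 76.4 CPM in SS MAC-1-, 54.1, 203 and 99.2 CPM in SS MAC-1low, 108, 101 and 97.9 CPM in 4 week MAC-1-, 67.0, 68.4, 95.9 and 46.2 CPM in 4 week MAC-1low and 18.9, 82.0 and 77.0 CPM in 4 week MAC-1+ samples. Its 4 week MAC-1- samples lay above those of both other 4 week populations without overlap, but no comparison reached an unadjusted p of 0.05. Laptm4a, a small transmembrane protein of late endosomes and lysosomes and the next in level per length after Cd63, read 143, 129 and 73.7 CPM in SS MAC-1-, 59.9, 65.4 and 132 CPM in SS MAC-1low, 100, 105 and 55.6 CPM in 4 week MAC-1-, 172, 124, 161 and 88.0 CPM in 4 week MAC-1low and 176, 131 and 181 CPM in 4 week MAC-1+ HSCs. The last were higher than the 4 week MAC-1- samples without overlap, with a log2 difference of 0.91 (SE 0.387) that did not pass the threshold (edgeR, adjusted p = 0.316). From SS MAC-1low HSCs it was 0.93 (SE 0.387; edgeR, adjusted p = 0.362).

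Mcoln1, the gene of the calcium channel TRPML1, was near or below the limit of a count of 0 in several samples. It read 0.293, 0 and 0.308 CPM in SS MAC-1-, 0.0522, 1.18 and 12.7 CPM in SS MAC-1low and 1.13, 0 and 0 CPM in 4 week MAC-1- HSCs. In 4 week MAC-1low samples it read 5.21, 19.1, 7.56 and 3.07 CPM, and in 4 week MAC-1+ samples 0.712, 18.5 and 36.0 CPM. The log2 differences of 4 week MAC-1+ HSCs, 5.60 (SE 2.41) from 4 week MAC-1- and 6.49 (SE 2.52) from SS MAC-1- HSCs, rest on groups of 0 to 18 counts per sample, and neither passed the threshold (edgeR, adjusted p = 0.325 and 0.27). The first was 11.5 without 4 week MAC-1- replicate 1, and DESeq2 called both (adjusted p = 0.0335 and 0.0104). Of the remaining membrane genes, Laptm5, Scarb2, Npc1 and Cd68, a marker of macrophages, had no unadjusted p under 0.05 in any comparison. Cd68 ranged from 0 to 57.5 CPM, with 0.188, 8.45 and 0.906 CPM in 4 week MAC-1- and 15.6 CPM or more in all 7 samples of the other 4 week populations.

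**Figure D2:**
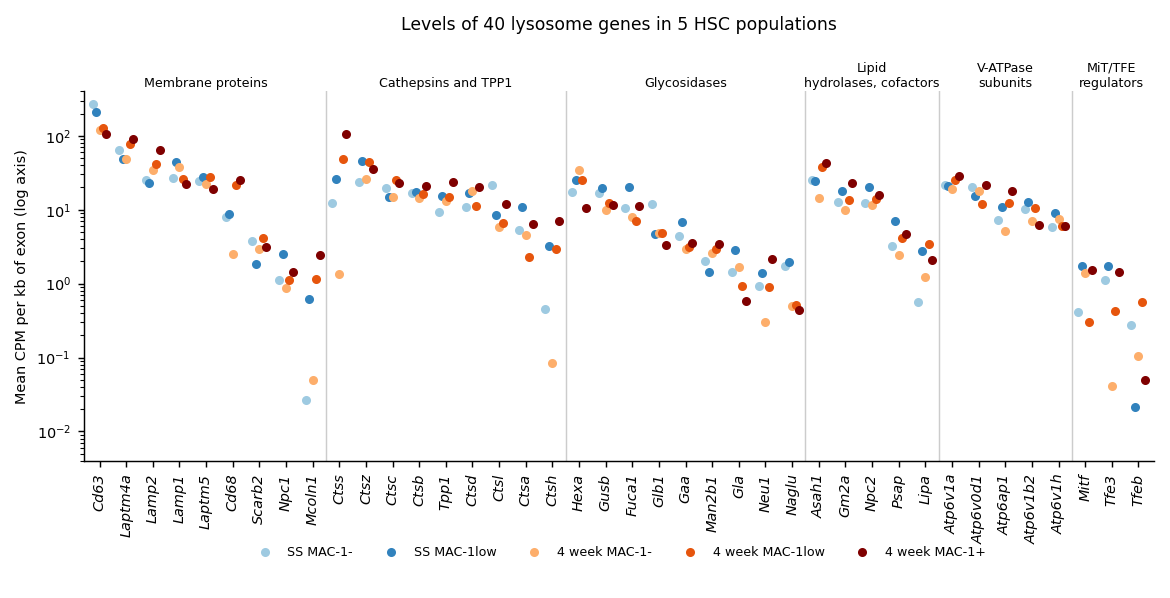
Mean level in CPM per kb of exon (y axis, log scale) of the 40 genes (x axis, by role and then by level) in each of the 5 HSC populations (colours, n = 3 or 4). Over the 16 samples Cd63 is highest, at 163.8 CPM per kb, and Tfeb lowest, at 0.227.

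Among the proteases, the cysteine protease Ctss, known from antigen-presenting cells, had the highest mean level per length, at 39.2 CPM per kb. It read 46.0, 4.93 and 0.0513 CPM in SS MAC-1- and 66.0, 40.2 and 0.670 CPM in SS MAC-1low HSCs. At 4 weeks it read 0, 5.27 and 0.241 CPM in MAC-1-, 139, 12.7, 42.0 and 68.5 CPM in MAC-1low and 131, 56.2 and 240 CPM in MAC-1+ HSCs. Both MAC-1-expressing populations were thus above the 4 week MAC-1- samples without overlap, while the SS samples spread over the whole span between them. The log2 differences from 4 week MAC-1- HSCs were 6.24 (SE 2.10) for MAC-1+ and 5.12 (SE 1.96) for MAC-1low HSCs, with large errors and without passing the threshold (edgeR, adjusted p = 0.185 and 0.579). DESeq2 on the same counts called both (adjusted p = 0.00755 and 0.0626). With single samples left out the first difference ran from 5.68, without 4 week MAC-1+ replicate 3, which had the highest Ctss, or without 4 week MAC-1- replicate 1, to 10.1 without 4 week MAC-1- replicate 2. The second ran from 4.45 to 8.99, the last also without 4 week MAC-1- replicate 2.

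Ctsh, a cysteine protease of the same family, was similarly uneven. It read 0, 1.02 and 0.121 CPM in 4 week MAC-1-, 38.1, 1.24, 12.4 and 1.84 CPM in 4 week MAC-1low and 35.3, 59.0 and 0.989 CPM in 4 week MAC-1+ HSCs, and from 0 to 23.1 CPM in SS HSCs. The difference between MAC-1+ and MAC-1- HSCs at 4 weeks was 6.32 (SE 2.64) on the log2 scale (edgeR, adjusted p = 0.306). Ctsl, another cysteine protease, read 104, 94.3 and 226 CPM in SS MAC-1- HSCs and 76.8, 15.9 and 71.7 CPM in SS MAC-1low HSCs. At 4 weeks it read 43.2, 28.1 and 44.0 CPM in MAC-1-, 31.1, 59.3, 36.1 and 47.7 CPM in MAC-1low and 70.3, 38.2 and 125 CPM in MAC-1+ HSCs. The SS MAC-1- samples were above those of every other population but 4 week MAC-1+ HSCs, which overlapped with them. The log2 differences from SS MAC-1- HSCs were -1.37 (SE 0.577) for SS MAC-1low and -1.88 (SE 0.585) for 4 week MAC-1- HSCs, neither past the threshold (edgeR, adjusted p = 0.521 and 0.302), while DESeq2 called the second (adjusted p = 0.0254).

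Ctsa, the serine carboxypeptidase that also protects neuraminidase and beta-galactosidase, read 26.6, 93.1 and 34.6 CPM in SS MAC-1low and 2.70, 13.4, 5.55 and 21.5 CPM in 4 week MAC-1low HSCs, which did not overlap. The log2 difference was -2.25 (SE 0.788; edgeR, adjusted p = 0.458). It read 7.85, 17.7 and 49.2 CPM in SS MAC-1-, 15.6, 24.6 and 24.1 CPM in 4 week MAC-1- and 18.1, 20.9 and 50.4 CPM in 4 week MAC-1+ HSCs. Tpp1, which removes tripeptides from protein ends, read 57.1, 26.7 and 58.5 CPM in SS MAC-1- and 104, 189 and 76.8 CPM in 4 week MAC-1+ HSCs, with a log2 difference of 1.38 (SE 0.583; edgeR, adjusted p = 0.309). Its samples of the other 3 populations ran from 29.2 to 112 CPM, between and across those of the 2 compared. Ctsz, a carboxypeptidase and the next of the proteases in level per length after Ctss, read 21.2, 34.1 and 47.1 CPM in SS MAC-1-, 52.3, 87.8 and 55.1 CPM in SS MAC-1low, 42.8, 41.8 and 28.4 CPM in 4 week MAC-1-, 59.0, 83.5, 86.1 and 25.7 CPM in 4 week MAC-1low and 48.1, 60.9 and 42.9 CPM in 4 week MAC-1+ HSCs. Neither it nor Ctsb, Ctsc and Ctsd, which are found in most tissues, had an unadjusted p under 0.05 in any comparison.

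Summed over the 9 protease genes, the 4 week populations did not overlap. The sum ran from 349 to 439 CPM in 4 week MAC-1-, from 491 to 626 CPM in 4 week MAC-1low and from 745 to 783 CPM in 4 week MAC-1+ HSCs. In SS HSCs it ran from 358 to 618 CPM in MAC-1- and from 520 to 536 CPM in MAC-1low samples. Between 4 week MAC-1+ and MAC-1low HSCs, 0 of the 9 proteases were without overlap, beside 8.23% of all genes, and 0 had an unadjusted p under 0.05. In the MAC-1+ samples Ctsc read 174, 222 and 8.39 CPM, beside 131, 56.2 and 240 CPM of Ctss. At 4 weeks Ctss alone read 0, 5.27 and 0.241 CPM in MAC-1- and 139, 12.7, 42.0 and 68.5 CPM in MAC-1low samples. The sums were not tested or set beside sums of other genes, nor was the part of Ctss in their gaps. The 5 lipid genes summed to 129 to 188 CPM in 4 week MAC-1-, 244 to 370 CPM in 4 week MAC-1low and 307 to 416 CPM in 4 week MAC-1+ HSCs, and the last 2 overlapped. The sums of the glycosidases, the V-ATPase subunits and the regulators overlapped between all 3 4 week populations. The monocyte and macrophage list summed to between 410 and 604 CPM in 4 week MAC-1-, 634 and 827 CPM in MAC-1low and 715 and 739 CPM in MAC-1+ samples. In SS HSCs the list summed to between 734 and 805 CPM in MAC-1- and 644 and 790 CPM in MAC-1low samples. Its part in the sums by role was not tested.

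**Figure D3:**
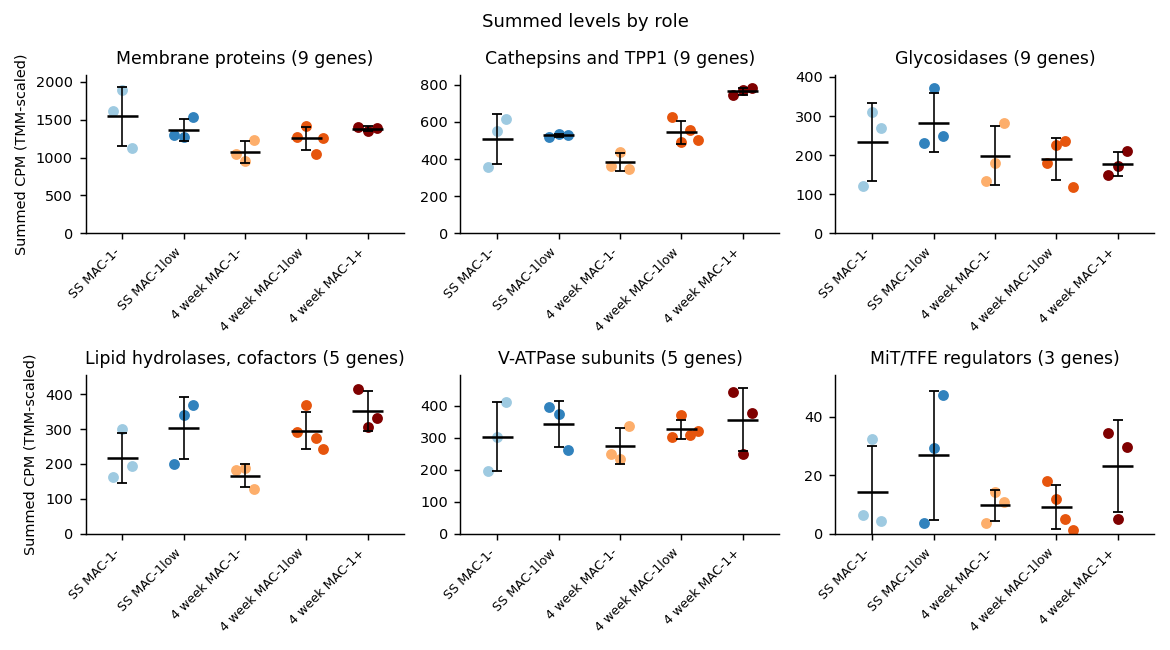
Summed level in CPM (y axis, from 0) of the genes of each role in each of the 16 samples (points) of the 5 HSC populations (x axis), with the mean (line) and SD (bars, cut at 0). The proteases run from 349 to 439 CPM in 4 week MAC-1- and from 745 to 783 CPM in 4 week MAC-1+ samples, with MAC-1low between, while the glycosidases overlap.

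The glycosidases, which take sugars off glycoproteins and glycolipids, had 0 members called in any comparison by edgeR, with Hexa and Fuca1 as the 2 of 9 at an unadjusted p under 0.05 in any, while DESeq2 called Hexa in 1 comparison. Hexa, the alpha subunit of beta-hexosaminidase, was their highest at 22.7 CPM per kb. It read 17.8, 39.7 and 46.4 CPM in SS MAC-1-, 66.2, 39.1 and 44.2 CPM in SS MAC-1low, 25.7, 41.9 and 141 CPM in 4 week MAC-1-, 47.1, 80.1, 47.3 and 25.3 CPM in 4 week MAC-1low and 14.6, 18.7 and 30.5 CPM in 4 week MAC-1+ HSCs. The 4 week MAC-1+ samples lay below all SS MAC-1low samples and mostly below the 4 week MAC-1- samples, of which replicate 3 was far above the rest. The log2 difference between MAC-1+ and MAC-1- HSCs at 4 weeks was -1.71 (SE 0.643; edgeR, adjusted p = 0.250), the only one of the 8 members with an unadjusted p under 0.05 in that comparison that was lower. With single samples left out it ran from -2.10 to -0.67, the latter without 4 week MAC-1- replicate 3.

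Gusb, beta-glucuronidase, read 48.6, 108 and 76.3 CPM in SS MAC-1-, 36.3, 103 and 128 CPM in SS MAC-1low, 38.4, 51.8 and 46.0 CPM in 4 week MAC-1-, 67.1, 60.2, 53.7 and 43.6 CPM in 4 week MAC-1low and 26.8, 55.7 and 76.4 CPM in 4 week MAC-1+ HSCs, with overlap between all populations of the same time. Fuca1, alpha-fucosidase, read 72.4, 80.0 and 46.1 CPM in SS MAC-1low and 13.2, 25.7, 22.1 and 31.4 CPM in 4 week MAC-1low HSCs. The log2 difference was -1.52 (SE 0.658) and did not pass the threshold (edgeR, adjusted p = 0.544). Its SS MAC-1- samples read 14.7, 73.5 and 16.9 CPM, its 4 week MAC-1- samples 9.73, 18.2 and 51.6 CPM and its 4 week MAC-1+ samples 55.6, 29.1 and 26.0 CPM, on both sides of that gap. Gla, alpha-galactosidase A, was at 0 in 9 of the 16 samples and at up to 26.6 CPM in the others, and Naglu and Neu1 had 1 and 2 samples at 0.

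Among the lipid genes, Asah1, acid ceramidase, which splits ceramide into sphingosine and fatty acid (ENSMUSG00000031591, chr8:41340197-41374773, minus strand), was the highest per length at 29.6 CPM per kb. It read 41.7, 143 and 71.1 CPM in SS MAC-1- and 60.5, 71.2 and 118 CPM in SS MAC-1low HSCs. At 4 weeks it read 42.3, 68.7 and 34.7 CPM in MAC-1-, 122, 155, 127 and 117 CPM in MAC-1low and 184, 134 and 114 CPM in MAC-1+ HSCs. The 4 week MAC-1- samples were below the 7 other 4 week samples without overlap, and SS samples lay on both levels. Asah1 was higher by 1.57 on the log2 scale (SE 0.430) in MAC-1+ than in MAC-1- HSCs of 4 weeks (edgeR, adjusted p = 0.0857). Of 4 week MAC-1low HSCs the difference was 1.42 (SE 0.409), with an unadjusted p of 0.00345 but an adjusted p of 0.332 by edgeR, in a comparison in which few genes were called. Both differences share the 4 week MAC-1- samples.

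The MAC-1low against MAC-1- difference in Asah1 was larger at 4 weeks than in SS HSCs by 1.46 (SE 0.581), which did not pass the threshold as a test of the interaction (edgeR, adjusted p = 0.492). The Asah1 call was lost without any 1 of the 6 samples compared, and without 4 week MAC-1low replicate 1, 3 or 4, with an adjusted p up to 0.312 and log2 differences from 1.36 to 1.91. Without replicate 3 of the 4 week MAC-1+ HSCs the difference was 1.74 (edgeR, adjusted p = 0.121).

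Gm2a, the activator protein that presents ganglioside GM2 to beta-hexosaminidase, read 31.3, 46.4 and 44.6 CPM in 4 week MAC-1- and 91.8, 56.9 and 140 CPM in 4 week MAC-1+ HSCs. The samples did not overlap, and the log2 difference of 1.24 (SE 0.436) did not pass the threshold (edgeR, adjusted p = 0.216). Gm2a read 49.1, 67.0 and 41.3 CPM in SS MAC-1-, 59.1, 64.0 and 96.3 CPM in SS MAC-1low and 48.5, 87.7, 52.9 and 32.6 CPM in 4 week MAC-1low HSCs. Lipa, acid lipase, which frees cholesterol and fatty acids from lipoproteins, read 2.64, 5.29 and 3.49 CPM in SS MAC-1- and 6.11, 35.6 and 14.8 CPM in SS MAC-1low HSCs, without overlap. Its log2 difference was 2.31 (SE 0.908; edgeR, adjusted p = 0.521). At 4 weeks Lipa read 8.03, 8.76 and 8.09 CPM in MAC-1-, 50.4, 9.05, 15.2 and 19.8 CPM in MAC-1low and 24.7, 7.04 and 10.2 CPM in MAC-1+ HSCs. Npc2, which carries cholesterol to the membrane protein NPC1, and Psap, the precursor of the saposins, had no unadjusted p under 0.05.

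Of the 5 V-ATPase subunits, 2 varied little between samples. Atp6v1a, the catalytic subunit, read 84.8, 125 and 187 CPM in SS MAC-1-, 161, 113 and 108 CPM in SS MAC-1low, 102, 112 and 128 CPM in 4 week MAC-1-, 136, 178, 160 and 128 CPM in 4 week MAC-1low and 207, 164 and 140 CPM in 4 week MAC-1+ HSCs. The SD of its log2 CPM within populations was 0.33, the third lowest of the 40 after Cd63 at 0.27 and Atp6v0d1 at 0.31. Atp6v0d1, a subunit of the membrane part, read 41.8, 38.7 and 29.6 CPM in SS MAC-1-, 28.1, 26.4 and 27.9 CPM in SS MAC-1low, 21.7, 36.4 and 39.6 CPM in 4 week MAC-1-, 25.5, 21.7, 22.0 and 17.2 CPM in 4 week MAC-1low and 52.0, 29.6 and 35.8 CPM in 4 week MAC-1+ HSCs. Its MAC-1+ samples were above the MAC-1low samples at 4 weeks, the only member without overlap in that comparison, with an unadjusted p of 0.0575. Atp6v1b2, Atp6v1h and the accessory subunit Atp6ap1 ran from 1.42 to 131 CPM and had no unadjusted p under 0.05.

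The 3 regulators had the lowest summed level of the roles, from 1.27 to 47.5 CPM. Mitf read 0.220, 3.93 and 3.44 CPM in SS MAC-1-, 3.55, 0 and 29.0 CPM in SS MAC-1low, 3.70, 12.2 and 10.1 CPM in 4 week MAC-1-, 3.86, 0.184, 2.57 and 0.824 CPM in 4 week MAC-1low and 20.0, 0.188 and 7.95 CPM in 4 week MAC-1+ HSCs. Tfe3 read 5.94, 24.6 and 0.102 CPM in SS MAC-1-, 0, 29.2 and 18.2 CPM in SS MAC-1low, 0.0628, 1.02 and 0.0604 CPM in 4 week MAC-1-, 2.51, 11.2, 2.16 and 0 CPM in 4 week MAC-1low and 14.3, 4.84 and 21 CPM in 4 week MAC-1+ HSCs. Tfeb read 0.147, 3.77 and 0.820 CPM in SS MAC-1-, 0.104, 0 and 0.258 CPM in SS MAC-1low, 0, 1.18 and 0.604 CPM in 4 week MAC-1-, 11.6, 0.505, 0.206 and 0.450 CPM in 4 week MAC-1low and 0.237, 0.0628 and 0.554 CPM in 4 week MAC-1+ HSCs. Each of the 3 was at 0 in 1 or 2 samples, and none had an unadjusted p under 0.05 in any comparison. The Tfe3 counts in MAC-1- samples at 4 weeks were 1, 27 and 1, and those in MAC-1+ samples were 301, 77 and 532, without overlap (edgeR, unadjusted p of 0.0569 and adjusted p = 0.391), and DESeq2 called it. These factors are known to be governed by where they sit in the cell, which RNA does not measure.

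In MAC-1+ against MAC-1- HSCs of 4 weeks, 1 of the 40 genes, Asah1, was called, beside 3.25% of all genes tested. DESeq2 called 7 members, Asah1, Ctsh, Ctss, Gm2a, Hexa, Mcoln1 and Tfe3, and limma-voom 3, Asah1, Ctss and Mcoln1. These tools also called more of all genes, 1321 by DESeq2 and 866 by limma-voom, beside 444 by edgeR. Of the members, 8 (20%) had an unadjusted p under 0.05, beside 13.4% of all genes, 7 of them higher in MAC-1+ HSCs, beside 6.3% of all genes, and 1 lower, beside 7.06%. The samples did not overlap for 11 members (27.5%), 10 higher and 1 lower, beside 21.7% of all genes, 10.2% higher and 11.5% lower. The median log2 difference of the 40 was 0.48 beside 0.07 over all genes, and 30 of 40 were positive beside 52.4% of all genes. All 9 proteases and all 5 lipid genes were positive, with medians of 0.62 and 0.95, while 5 of 9 glycosidases were. With the exon length offset the median of the 40 was 0.47.

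In MAC-1low against MAC-1- HSCs of 4 weeks, 0 members were called by edgeR, beside 0.278% of all genes. Of the members, 2 (Asah1 and Ctss) had an unadjusted p under 0.05, beside 7.25% of all genes. DESeq2 called those 2, beside 410 of all genes, and limma-voom called Asah1, beside 309. The samples of 9 members (22.5%) did not overlap, 8 higher and 1 lower, beside 10.8% of all genes, 5.23% higher and 5.53% lower. The higher ones were Mcoln1, Cd68, Ctsc, Ctsh, Ctss, Lipa, Asah1 and Atp6v1a, and the lower one was Lamp1. The median of the 40 was 0.30 beside 0.05 over all genes, with 30 of 40 positive beside 52.2% of all genes. In MAC-1+ against MAC-1low HSCs of 4 weeks, 0 members were called by edgeR, as was 0% of all genes. An unadjusted p under 0.05 was reached by 0 members, beside 6.85% of all genes. DESeq2 and limma-voom called 0 members, beside 318 and 1 of all genes. The samples of 1 member did not overlap, which was higher, beside 8.23% of all genes, 3.75% higher and 4.48% lower, and 26 of 40 were positive beside 49.7% of all genes.

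In SS HSCs, 0 members were called for MAC-1low against MAC-1- by edgeR, beside 0.0146% of all genes. Lipa, higher, and Ctsl, lower, were the 2 with an unadjusted p under 0.05, beside 9.36% of all genes. DESeq2 called Lipa, beside 737 of all genes, and limma-voom 0 members, beside 0 of all genes. The samples of 6 members (15%) did not overlap, 4 higher and 2 lower, beside 11.3% of all genes, 5.95% higher and 5.38% lower. The median of the 40 was 0.54 beside 0 over all genes, with 28 of 40 positive beside 49.7%. The interaction of time with MAC-1low was called for 0 members by edgeR, DESeq2 and limma-voom, beside 0.0586% of all genes by edgeR. Over all genes it was called for 594 by DESeq2 and for 16 by limma-voom. Asah1 was the 1 member with an unadjusted p under 0.05, beside 8.73% of all genes, and 22 of 40 were positive beside 51%. The lack of calls does not show that the MAC-1low effects of both times were equal.

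Of the comparisons across time, that of the MAC-1- HSCs had 1 member called by edgeR (Cd63), beside 0.432% of all genes. DESeq2 called Cd63 and Ctsl, beside 882 of all genes, and limma-voom Cd63, beside 83. Cd63 and Ctsl were the 2 with an unadjusted p under 0.05, beside 10.4% of all genes, and the samples of 4 members (10%) did not overlap, 2 higher and 2 lower, beside 16.6% of all genes, 9.24% higher and 7.4% lower. The median of the 40 was -0.36 beside -0.03 over all genes, with 12 of 40 positive beside 48.1%. For the MAC-1low HSCs 0 members were called by edgeR, beside 0.0439% of all genes. Of the members, 4 had an unadjusted p under 0.05 (Cd63, Ctsa and Fuca1 lower, Lamp2 higher), beside 8.89% of all genes. DESeq2 called Cd63 and Ctsa, beside 518 of all genes, and limma-voom 0 members, beside 24. The samples of 6 members (15%) did not overlap, 1 higher and 5 lower, beside 10.4% of all genes, 5.44% higher and 4.98% lower, and 15 of 40 were positive beside 49%.

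Of the 4 week MAC-1+ HSCs, 1 member (Cd63) was called by edgeR against SS MAC-1- HSCs, beside 2.36% of all genes. DESeq2 called Cd63, Lamp2 and Mcoln1, beside 1414 of all genes, and limma-voom Cd63, beside 190. Of the members, 4 had an unadjusted p under 0.05, beside 14% of all genes. The samples of 6 members did not overlap, 5 higher and 1 lower, beside 17% of all genes, 8.36% higher and 8.62% lower. Against SS MAC-1low HSCs 1 member (Cd63) was called by edgeR, beside 1.42% of all genes. DESeq2 called Cd63 and Lamp2, beside 1088 of all genes, and limma-voom Cd63, beside 104. Of the members, 3 had an unadjusted p under 0.05, beside 12.1% of all genes. Here the samples of 5 members did not overlap, 2 higher and 3 lower, beside 16.3% of all genes, 7.71% higher and 8.56% lower. The medians of the 40 were 0.35 and 0.04 in these comparisons, beside 0.02 and -0.01 over all genes, with 27 and 20 of 40 positive beside 50.6% and 49.2%, and with the exon length offset the first median was 0.23. A joint test of any difference among the 5 populations called 1 member (Cd63, edgeR, adjusted p = 0.0133), beside 2.22% of all genes, and this call held with each of the 16 samples left out in turn. DESeq2 called 5 in it, Asah1, Cd63, Ctsl, Lamp2 and Mcoln1, beside 1333 of all genes, and limma-voom Cd63, beside 380. Cd63, Lamp2, Asah1 and Ctsl were the 4 members with an unadjusted p under 0.05 in it, beside 13.8% of all genes. No overlap between all 4 week and all SS samples, with 4 weeks higher, was seen for 0 members, beside 0.124% of all genes.

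**Figure D4:**
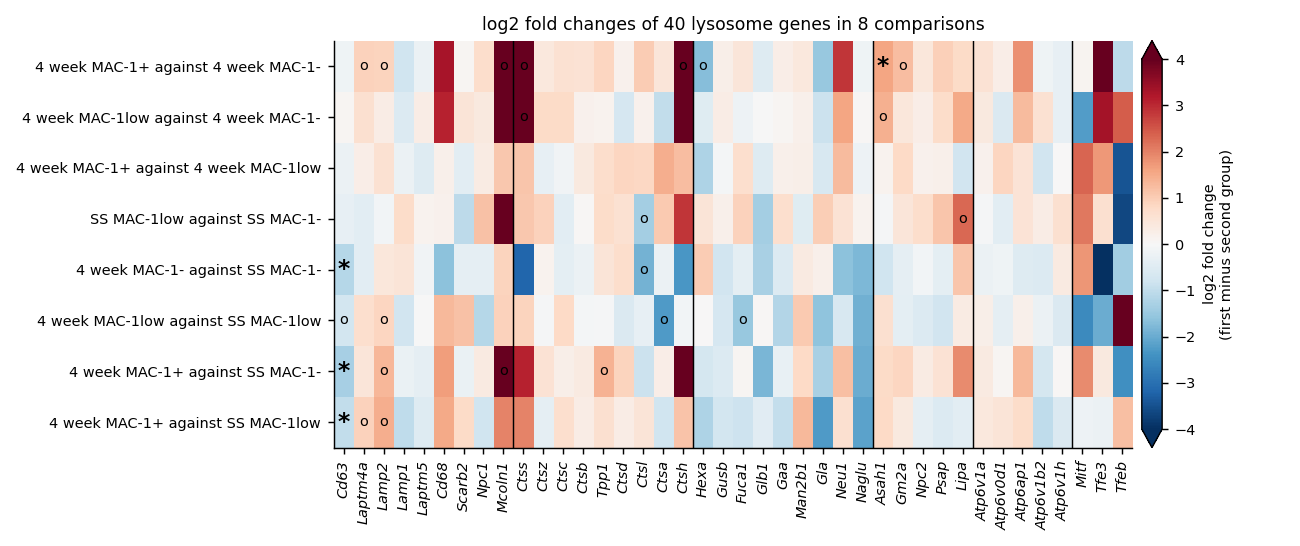
Fitted log2 fold changes (colour, cut at -4 and 4, first group minus second) of the 40 genes (x axis, by role) in 8 comparisons (y axis) that share samples. A star marks an adjusted p below 0.1 (edgeR) and a circle an unadjusted p below 0.05, and the stars stand on Cd63 in 3 comparisons with SS HSCs and on Asah1 in 4 week MAC-1+ against MAC-1- HSCs.

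The promoter letters can be set beside these differences as a description, with no test. For MAC-1+ against MAC-1- HSCs of 4 weeks, the 11 members with the letters had a median log2 difference of 0.25, 7 of them positive, and the 23 without had one of 0.62, with 19 positive. Mcoln1, with CACGTG at positions -71 and -45, had the highest value of the former at 5.60. Cd63, Lamp2, Ctss and Gm2a were all among the latter, Cd63 by a start inside its gene span alone, and Asah1 had no promoter to search.

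The spread between samples of a population set what could be told apart. The SD of log2 CPM within populations ran from 0.27 for Cd63 to 3.71 for Gla, with a median of 0.99 over the 40 beside 1.43 over all genes tested. At least 1 sample was at 0 for 10 members (25%), Cd68, Mcoln1, Ctsh, Ctss, Gla, Naglu, Neu1, Tfeb, Tfe3 and Mitf, beside 38.5% of the genes tested, and beside 33.6% of those with a mean at or above that of the lowest member. All 3 regulators are among them. In the 4 week MAC-1- HSCs, 4, 1 and 1 of the members were at 0, and in the 4 week MAC-1+ HSCs 1, 1 and 0.

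**Figure D5:**
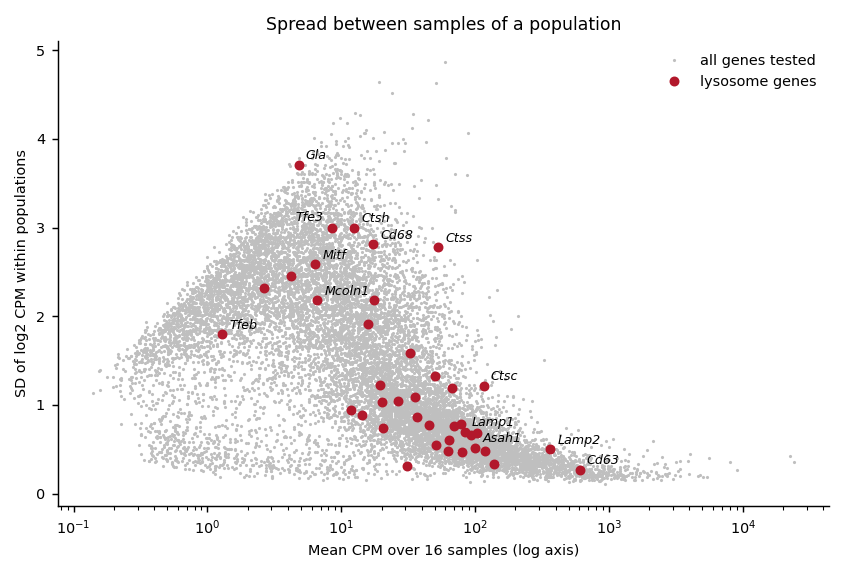
SD of log2 CPM within populations (y axis) against mean CPM over the 16 samples (x axis, log scale) for all 13661 genes tested (grey) and the 40 lysosome genes (red). Cd63 and Lamp2 lie at the high, even end and Gla, Tfe3, Ctsh, Cd68 and Ctss among the genes with a wide spread, with Gla at 3.71.

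The 141 other genes of the lysosome, of sorting to it, of mTORC1 nutrient sensing and of autophagy, of which 128 were tested, gave calls that depended on the tool. Against SS MAC-1- HSCs, edgeR called 5 of them in 4 week MAC-1+ HSCs, 2 higher and 3 lower, beside the same 2.36% of all genes. Against SS MAC-1low HSCs edgeR called 1, beside 1.42%. DESeq2 called 16 and 9 in these comparisons, beside 1414 and 1088 of all 13661 genes. Limma-voom called 3 and 1, beside 190 and 104. The joint test gave 2 by edgeR, 16 by DESeq2 and 3 by limma-voom, beside 303, 1333 and 380 of all genes. In the other 6 comparisons edgeR called 0, with 4 to 15 of the 128 (3.12% to 11.7%) at an unadjusted p under 0.05, beside 6.85% to 13.4% of all genes. There DESeq2 called 0 to 9, beside 318 to 1321 of all genes, and limma-voom 0 to 4, beside 0 to 866. The lower ones were 2 small V-ATPase subunits and a subunit of the Ragulator complex that anchors mTORC1 on the lysosome. Atp6v1f read 772, 986 and 944 CPM in SS MAC-1- and 470, 423 and 390 CPM in 4 week MAC-1+ HSCs and fell by 1.08 on the log2 scale (SE 0.169; edgeR, adjusted p = 0.00729). Atp6v0e fell by 0.78 (SE 0.173; edgeR, adjusted p = 0.0439) and Lamtor2 by 1.04 (SE 0.263; edgeR, adjusted p = 0.0764). The higher ones were the sialomucin Cd164, with 1.89 (SE 0.481; edgeR, adjusted p = 0.0771), and the aspartic protease Ctse, with 0.97 (SE 0.262; edgeR, adjusted p = 0.0934).

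With the exon length offset, Atp6v1f, Atp6v0e, Lamtor2 and Cd164 were no longer called (adjusted p = 0.153, 0.101, 0.401 and 0.117) and Ctse was (adjusted p = 0.0813, edgeR). With each of the 16 samples left out in turn, however, the Ctse call against SS MAC-1- HSCs was kept in 1 fit (adjusted p up to 0.268), that of Cd164 in 7, that of Lamtor2 in 8, that of Atp6v0e in 13 and that of Atp6v1f in 16. The Cd63 and Asah1 calls among the 40 remained with the exon length offset (adjusted p from 0.0174 to 0.0837 for Cd63 and 0.0719 for Asah1).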

How the data were processed

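The authors deposited whole-number read counts per gene, which per the study's methods came from STAR alignments in an nf-core pipeline. Which program counted the reads, on which build and annotation, is not given in the sources used here. Members, their roles and the other lists were chosen with earlier results of these data known. Counts of all 46078 genes were filtered with filterByExpr, scaled by TMM and fitted in 1 model of the 5 populations with edgeR 4.0.16 (robust quasi-likelihood, Benjamini-Hochberg over 13661 genes, called at an adjusted p below 0.1). DESeq2 1.42.0 and limma-voom (limma 3.58.1) were alternatives. All limma-voom results come from a robust fit with sample weights, in which samples with a wider spread count less. The genes given sample by sample are Lamp1, Lamp2 and the regulators, called members, the 2 highest per length of each role, and up to 3 per direction and comparison with the smallest unadjusted p below 0.05; other genes named beside these were chosen after their values were seen. Of other lysosome genes, called ones are named. Exon lengths are from GENCODE M21 (GRCm38), which held 98% of the gene identifiers; promoters are from RefSeq. The fit was tested on simulated data. No replicates held identical counts.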

Additional observations from a re-analysis of the deposited data

Results flagged for a closer look

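In the 4 week MAC-1low HSCs, the population with 4 samples, the value of 1 sample lay far from the other 3 for 4 of the 40 genes tested. Chance would flag about 1 in 20 groups of normally distributed values. The rate for values like these, some of them near 0, was not computed. Gla read 12.1 CPM in replicate 3 and 0 in the others. Tfeb read 11.6 CPM in replicate 1 and 0.206 to 0.505 CPM in the others. Npc2 read 101 CPM in replicate 2, beside 64.8 to 69.2 CPM, and Atp6ap1 read 79.0 CPM in replicate 2, beside 18.1 to 28.1 CPM.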

How the results depend on the processing

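The number of members called depended on the tool and the samples fitted, and no difference of a single member at an unadjusted p under 0.05 by edgeR turned its direction. Directions of other differences were not recomputed. Between MAC-1+ and MAC-1- HSCs at 4 weeks edgeR called 1, DESeq2 7 and limma-voom 3, and 0 were called with a covariate for detected genes, with the replicate block or with only the groups compared. Between 4 week MAC-1low and MAC-1- HSCs DESeq2 called 2 and limma-voom 1 in place of 0, and between SS MAC-1low and MAC-1- HSCs DESeq2 called 1 in place of 0. Between 4 week and SS MAC-1- HSCs DESeq2 called 2, and the replicate block and the groups alone 0, in place of 1. Between the MAC-1low populations of both times DESeq2 called 2 in place of 0. Of 4 week MAC-1+ HSCs, against SS MAC-1- HSCs DESeq2 called 3, no filter 2 and the groups alone 0 in place of 1, and against SS MAC-1low HSCs DESeq2 called 2, no filter 2, and the replicate block, the groups alone and a fold threshold 0 in place of 1. The joint test called 5 by DESeq2 and 4 without a filter in place of 1. With single samples left out the counts ran from 0 to 1 (4 week MAC-1+ against MAC-1-, and 4 week against SS MAC-1-), 1 to 2 and 0 to 2 (MAC-1+ of 4 weeks against either SS population), 1 to 1 (joint test) and 0 to 0 elsewhere. Counts over all genes moved too. MAC-1+ against MAC-1- HSCs at 4 weeks gave 444 genes by edgeR, 1321 by DESeq2, 866 by limma-voom and 154 with the groups alone. MAC-1low against MAC-1- at 4 weeks gave 38, 410, 309 and 17, and MAC-1+ against MAC-1low gave 0, 318 and 1 by the 3 tools. The SS pair gave 2, 737 and 0, and the interaction 8, 594 and 16. Against SS MAC-1- HSCs, MAC-1+ HSCs of 4 weeks gave 323, 1414, 190 and 19, with 136 under the exon length offset, and against SS MAC-1low 194, 1088, 104 and 1, with 64. MAC-1- HSCs across time gave 59 by edgeR, 882 by DESeq2 and 7 with the groups alone, MAC-1low HSCs 6, 518 and 0, and the joint test 303, 1333 and, without a filter, 2420. The replicate block gave 203, 101, 26, 8, 0, 0, 0 and 177 in place of 323, 194, 59, 38, 6, 2, 8 and 303. With DESeq2 size factors, 26 rose and 12 fell between 4 week MAC-1low and MAC-1- HSCs, in place of 22 and 16, and 74 rose and 70 fell between 4 week MAC-1+ and SS MAC-1low HSCs, in place of 80 and 114. Same-numbered samples of different populations had r from -0.0249 to 0.0397 over 30 pairs, beside -0.026 to 0.0277 over 72 pairs of other numbers. The largest, 0.0397, joined replicates 1 of 4 week MAC-1- and MAC-1low HSCs. Equal numbers need not mark the same mice or sort, so whether samples shared mice or sorts was not tested. The exon length offset was chosen after seeing the data. Genes near 0 counts limit what these libraries can show.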

Other observations

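The 40 genes together held 1986 to 2341 CPM in 4 week MAC-1- HSCs, 2435 to 2885 CPM in 4 week MAC-1low and 2848 to 3193 CPM in 4 week MAC-1+ HSCs, beside 2457 to 3382 CPM in SS MAC-1- and 2647 to 2995 CPM in SS MAC-1low HSCs. Without Cd63 the sums at 4 weeks were 1526 to 1857 CPM in MAC-1-, 1999 to 2303 CPM in MAC-1low and 2434 to 2866 CPM in MAC-1+ HSCs. Those of SS HSCs were then 1370 to 2232 CPM in MAC-1- and 1813 to 2263 CPM in MAC-1low samples. These sums were not tested. Of the other lysosome genes with a promoter, 27 of 110 (24.5%) held CACGTG and 10 (9.09%) held TCACGTGA. The 10-letter form stood in 4 of them (3.64%).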
